A study of Homo sapiens with 12 samples.

Results

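The question was whether HepG2 cells with less macroH2A respond to TNFα differently from control cells, gene by gene. HepG2 is an established human hepatoma cell line that keeps many traits of liver cells. The comparison used all 12 libraries of the series, 12 of 12, in 4 groups of 3. DKD cells with TNFα and untreated DKD cells carry shRNAs to macroH2A1 and macroH2A2 together (double knock-down). CTL cells with TNFα and untreated CTL cells carry control shRNAs. Both lines received their shRNAs through pRetroSUPER retroviruses, and all cells spent a night in 0.5% serum before treatment. TNFα was given at 20 ng/mL for 24 h. Untreated wells received the vehicle, PBS with albumin. Whether the replicates were grown as separate cultures is not said, so the p-values speak for the spread of these 12 libraries, part of which may be technical. Nor do they say whether a line is a pool or 1 clone, so effects of the knock-down and other differences between the 2 lines cannot be told apart.

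TNFα binds its receptor TNFR1 and, through the IKK kinases, frees the transcription factor NF-kB to switch on inflammatory and survival genes, many of which feed back on the pathway. In liver cells it also acts on the acute-phase and bile acid programmes. MacroH2A proteins are variants of histone H2A with a large macro domain, found mainly in repressed chromatin and at some signal-responsive genes. The interaction is the difference between the TNFα response of DKD cells and that of CTL cells: the log2 fold change with TNFα in DKD cells minus the one in CTL cells. It is negative where a gene rose less, or fell more, in DKD cells, and positive where it rose more or fell less.

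Library totals ran from 30955080 estimated counts (untreated CTL, replicate 2) to 42094144 (untreated DKD, replicate 2), and levels are given as CPM, counts scaled by TMM library size, as in the usual CPM unit. The table held 35984 genes, of which 16118 passed the filter on low counts. MACROH2A1 was at 44.2, 63.5 and 58.8 CPM in DKD cells with TNFα and 32.4, 55.5 and 50.7 CPM in untreated DKD cells, against 256, 268 and 279 CPM in CTL cells with TNFα and 205, 250.4 and 254 CPM in untreated CTL cells. MACROH2A2 was at 4.64, 3.96 and 3.28 CPM in DKD cells with TNFα and 6.01, 4.76 and 4.55 CPM in untreated DKD cells, against 47.1, 41.0 and 51.1 CPM in CTL cells with TNFα and 58.3, 54.8 and 60.4 CPM in untreated CTL cells. Both target transcripts were thus lower in every DKD library than in any CTL library. Their interaction was 0.085 (95% interval -0.50 to 0.67) and -0.046 (-0.50 to 0.41) on the log2 scale, and both changed sign when some libraries were left out. The 10 hepatocyte-lineage markers summed to 21195 to 27907 CPM in DKD cells with TNFα and 27789.7 to 41114 CPM in untreated DKD cells, against 18017 to 19939 CPM in CTL cells with TNFα and 22475 to 24260 CPM in untreated CTL cells. The 12 markers of blood, endothelial, stromal and squamous cells summed to 2.69 to 4.02 CPM over all libraries, and the T-cell gene CD3E was at 0 in all of them. In a principal component analysis the DKD libraries of replicate 1 were remote from the rest on component 1 (37.9% of variance), at -45.7 with TNFα and -71.2 untreated, while the other libraries lay between -14.1 and 34.7. Replicate 1 was also the lowest in both CTL groups. With TNFα it was at 6.63, against 32.7 and 34.7, and untreated at -14.1, against 19.3 and 17.7. Values of the leading genes, and the medians of some lists, are also given without replicate 1.

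No gene passed the edgeR test for the interaction. It called 0 of 16118 genes (0%) without a block, with 184 genes (1.14%) at an unadjusted p under 0.05, and the smallest adjusted p was 0.821. With the replicate number as a block, edgeR again called 0 genes (0%), with 556 (3.45%) at an unadjusted p under 0.05, of which 319 were positive (1.98%) and 237 negative (1.47%). The smallest adjusted p was then 0.394. DESeq2, which estimates the spread differently, called 5 genes (0.0310%) without the block, 2 positive and 3 negative, with 169 at an unadjusted p under 0.05. With the block it called 22 (0.136%), 9 positive and 13 negative, with 475 at an unadjusted p under 0.05. All 5 of the first set were among the 22. limma-voom with quality weights called 1 gene without the block (565 at an unadjusted p under 0.05) and 0 with it (369). Counts in edgeR went to 1 when single libraries were left out: TBC1D3I without untreated CTL replicate 2, with or without the block, and TBC1D3D without untreated DKD replicate 2, with the block. Both are copies of 1 family that share most of their sequence. Single genes are therefore given as values with their error and, for some, the adjusted p of DESeq2 or edgeR. Over all 12 libraries no edgeR adjusted p was under 0.05, printed or not.

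The TNFα response itself was large in both lines. Averaged over the lines, edgeR called 809 genes raised (5.02%) and 354 lowered (2.20%). That count moved with the libraries: 1163 genes in all became 748 without DKD TNFα replicate 2, 1968 without untreated DKD replicate 1, 709 without CTL TNFα replicate 2, 702 without untreated CTL replicate 3, and 3941, 105 and 92 without replicates 1, 2 and 3 of all groups. With the block it was 3414. Since the average of the lines and their difference are orthogonal contrasts in this design, the average was used to pick TNFα genes without favouring 1 line.

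Over the 809 raised genes the median response was 0.59 in DKD and 0.64 in CTL cells (log2), and the median interaction was -0.041. It was negative in 475 of them (58.7%), against 8110 of all 16118 genes (50.3%), whose median interaction was -0.0011. Over the 354 lowered genes the median response was -0.37 in DKD and -0.48 in CTL cells, the median interaction was 0.099, and it was positive in 267 (75.4%), against 49.7% of all genes. Both medians were thus nearer 0 in DKD cells. For the 33 genes lowered by more than 1 log2 unit the median responses were -1.45 in DKD and -1.42 in CTL cells, while the median interaction was 0.17 and it was positive in 20 (60.6%). Without replicate 1 the shares were 459 of 809 (56.7%) and 245 of 354 (69.2%), with median interactions of -0.027 and 0.067. No test was made of these shares, because genes of 1 library are not independent.

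**Figure D1:**
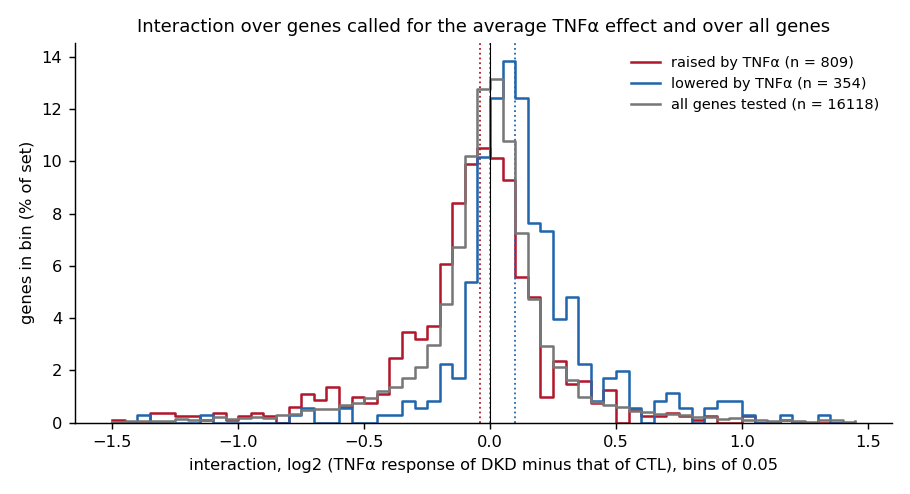
Distribution of the interaction, in bins of 0.05 on the log2 scale (x axis), as a percentage of each set (y axis), for the 809 genes raised and the 354 lowered by TNFα on average of both lines and for all 16118 genes tested. Dotted lines mark the medians at -0.041, 0.099 and -0.0011; values beyond 1.5 in either direction are not drawn.

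The data also bound the interaction. For 583 of the 809 raised genes (72.1%) the 95% interval of the interaction lay within 1 log2 unit of 0 on either side, so that a difference of more than 1 unit lay outside it. For the lowered genes it was 293 of 354 (82.8%), and for all genes 10520 of 16118 (65.3%). With the block these were 653 (80.7%), 315 (89.0%) and 12105 (75.1%). Genes with the largest responses were bounded least. Of 227 genes raised by more than 1 log2 unit 56 had such an interval (101 with the block), and of 33 lowered by more than 1 unit 2 did (11 with the block). The median SE of the interaction over all genes was 0.27, or 0.17 with the block.

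**Figure D2:**
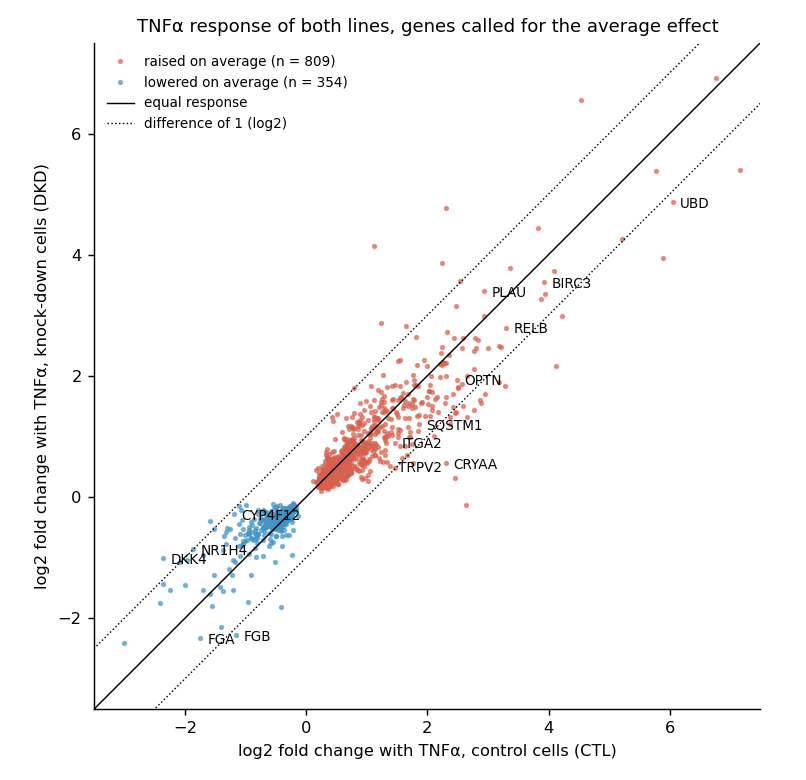
TNFα response of DKD cells (y axis) against CTL cells (x axis), as log2 fold changes, for genes called for the average effect of both lines; 1161 of 1163 lie within the axes. The solid line marks equal responses and the dotted lines a difference of 1; OPTN, SQSTM1, UBD, TRPV2 and CRYAA lie below the solid line, and DKK4, NR1H4 and CYP4F12 above it.

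CRYAA, DKK4 and OPTN were among the genes with the smallest edgeR p for the interaction with the block; without it this held for CRYAA and DKK4 but not for OPTN. CRYAA and OPTN overlapped between the lines with TNFα and were higher in DKD cells without it, while DKK4 was higher in DKD cells in both states. Untreated, OPTN was closest between the lines, with a log2 difference of 0.47, against 1.80 for CRYAA and 1.37 for DKK4. Positions are those of RefSeq on GRCh38.p14. CRYAA encodes alpha-A-crystallin, a small heat shock protein best known from the eye lens (chromosome 21, 43169008 to 43172810). It was at 6.29, 5.09 and 7.05 CPM in DKD cells with TNFα and 4.56, 4.71 and 3.27 CPM in untreated DKD cells, against 5.83, 5.55 and 6.43 CPM in CTL cells with TNFα and 0.802, 1.38 and 1.42 CPM in untreated CTL cells. With TNFα the lines overlapped, and without it every DKD library was above every CTL library. The 3 same-numbered responses were 0.44, 0.11 and 1.05 in DKD and 2.53, 1.83 and 2.004 in CTL cells (log2 of CPM + 0.25), without overlap. In 947 genes (5.88%) the responses lay without overlap higher in DKD cells and in 905 (5.61%) lower. CRYAA, DKK4 and OPTN were named with earlier results of these data known. Many other genes named here were picked by a small p or a DESeq2 call for the interaction. A lack of overlap in such genes is therefore largely built in and is no result. The interaction of CRYAA was -1.75 (SE 0.33, edgeR adjusted p = 0.821 and, with the block, adjusted p = 0.394), and DESeq2 gave adjusted p = 0.00125 without and 0.00134 with the block.

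CRYAA has a near-identical copy, CRYAA2, and reads of the pair can be split arbitrarily: 87.0% of the 31-base words in CRYAA transcripts also occur in those of CRYAA2. CRYAA2 was at 7.24, 14.6 and 18.5 CPM in DKD cells with TNFα and 6.64, 7.49 and 8.01 CPM in untreated DKD cells, against 4.24, 13.5 and 14.6 CPM in CTL cells with TNFα and 2.58, 3.36 and 3.67 CPM in untreated CTL cells. Its responses were 0.12, 0.94 and 1.19 in DKD and 0.67, 1.92 and 1.92 in CTL cells and overlapped, and its interaction was -0.88 (SE 0.60). Summed, the pair had responses of 0.27, 0.68 and 1.17 in DKD and 1.51, 1.95 and 1.997 in CTL cells, without overlap. The summed interaction was -1.16 (SE 0.41), smaller than for CRYAA alone, or -1.19 (SE 0.25, edgeR adjusted p = 0.664) with the block. DESeq2 with the block gave the sum an adjusted p of 0.0101. CRYAA2 and the sum were looked at after the values of CRYAA were seen.

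DKK4, a secreted antagonist of Wnt signalling (chromosome 8, 42374063 to 42391322), was at 10.2, 8.22 and 6.199 CPM in DKD cells with TNFα and 19.8, 18.1 and 11.9 CPM in untreated DKD cells, against 1.32, 1.25 and 1.18 CPM in CTL cells with TNFα and 6.76, 7.66 and 4.89 CPM in untreated CTL cells. The groups of DKD cells were higher than the matching groups of CTL cells in every library, and both lines were lower with TNFα. Responses were -0.94, -1.12 and -0.92 in DKD and -2.16, -2.40 and -1.85 in CTL cells, without overlap. The interaction was 1.35 (SE 0.35), and 1.34 (SE 0.19, edgeR adjusted p = 0.394) with the block, where DESeq2 gave adjusted p = 1.24e-04.

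OPTN encodes optineurin, a ubiquitin-binding receptor of selective autophagy that also restrains NF-kB signalling (chromosome 10, 13100082 to 13138308). Levels were 72.3, 88.8 and 93.1 CPM in DKD cells with TNFα and 18.1, 24.9 and 23.4 CPM in untreated DKD cells, against 77.3, 95.7 and 96.2 CPM in CTL cells with TNFα and 14.3, 17.5 and 16.3 CPM in untreated CTL cells. Both lines were higher with TNFα in every library, and with TNFα the lines overlapped. Untreated, every DKD library was above every CTL library. Responses were 1.99, 1.82 and 1.98 in DKD and 2.41, 2.44 and 2.55 in CTL cells, without overlap. The interaction of -0.55 (SE 0.21) amounted to a rise of 1.94 in DKD cells and 2.49 in CTL cells. With the block the SE was 0.090 (edgeR adjusted p = 0.394), and DESeq2 gave adjusted p = 5.77e-04.

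Without replicate 1, whose DKD libraries stand apart, the interaction was -1.495 for CRYAA, 1.30 for DKK4 and -0.60 for OPTN. Among the genes that follow, it was 0.84 for NR1H4, -0.83 for TRPV2, -0.94 for FGB, -0.46 for IL32 and -1.17 for UBD, each with the sign it had over all libraries.

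**Figure D3:**
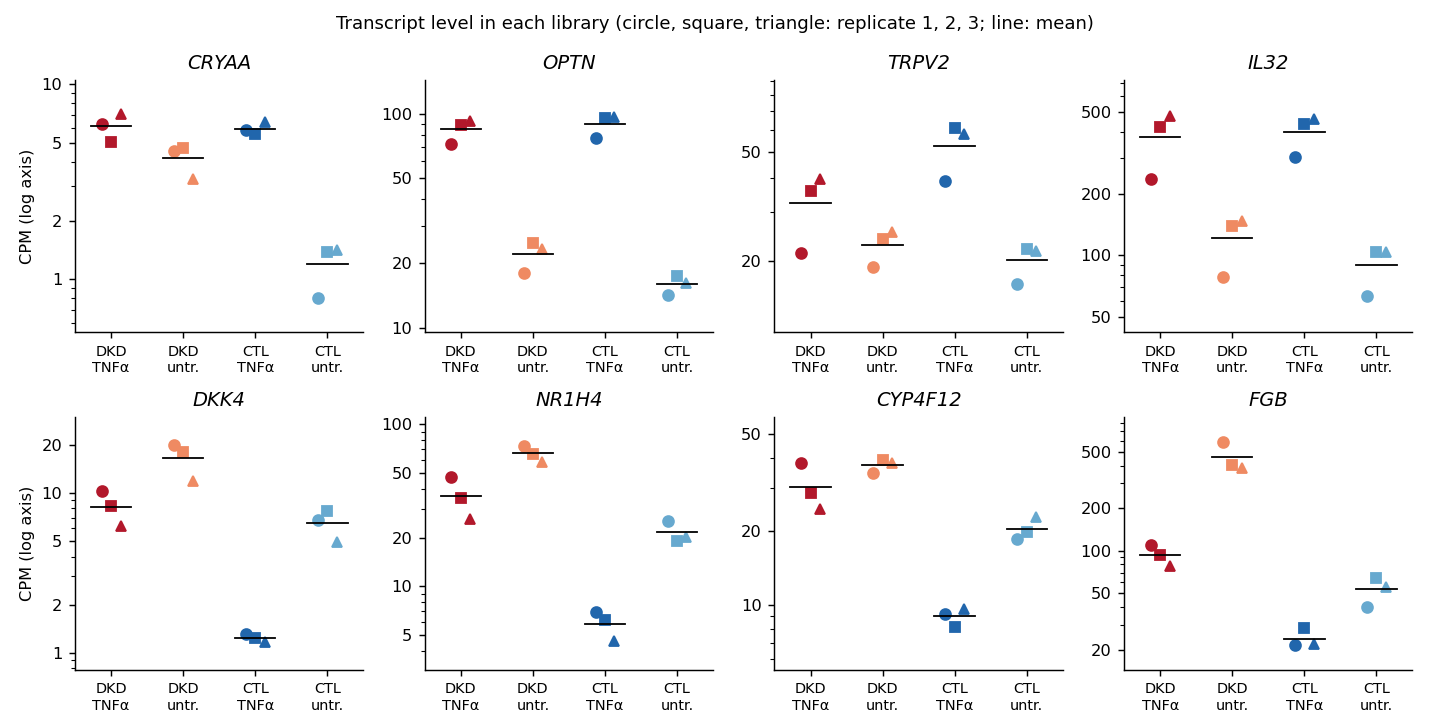
CPM of 8 genes in each library (log axis), with DKD cells left of CTL cells and TNFα left of untreated cells in each line. Points are replicates 1 (circle), 2 (square) and 3 (triangle) and lines the group means; in the upper panels the lines differ in how far TNFα raised the gene, and in the lower panels in how far it lowered it.

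The promoters of the genes with the smallest p were read for the NF-kB consensus, a 10-base motif, on both strands in the 300 bases around the gene start (250 before, 50 after). RefSeq promoter sequences (GRCh38.p14) were at hand for 10 of the 22 genes that DESeq2 called with the block, and 3 of the 10 held a match: OPTN, UBD and IL32. These are printed on the gene's own strand, with the match in capitals, since each is a TNFα-raised gene with a negative interaction. CRYAA and NR1H4 are printed beside them as genes without a match.
OPTN: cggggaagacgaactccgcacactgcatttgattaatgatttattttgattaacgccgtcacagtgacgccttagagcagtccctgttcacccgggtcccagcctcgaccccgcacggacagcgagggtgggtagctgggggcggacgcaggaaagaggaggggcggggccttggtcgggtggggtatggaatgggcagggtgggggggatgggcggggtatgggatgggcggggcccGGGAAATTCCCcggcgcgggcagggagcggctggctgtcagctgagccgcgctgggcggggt
IL32: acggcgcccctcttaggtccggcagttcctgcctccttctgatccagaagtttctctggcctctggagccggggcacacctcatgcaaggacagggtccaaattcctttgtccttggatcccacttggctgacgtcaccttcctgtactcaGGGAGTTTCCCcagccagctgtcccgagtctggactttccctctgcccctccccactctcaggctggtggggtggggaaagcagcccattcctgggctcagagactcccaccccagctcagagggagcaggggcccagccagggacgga
UBD: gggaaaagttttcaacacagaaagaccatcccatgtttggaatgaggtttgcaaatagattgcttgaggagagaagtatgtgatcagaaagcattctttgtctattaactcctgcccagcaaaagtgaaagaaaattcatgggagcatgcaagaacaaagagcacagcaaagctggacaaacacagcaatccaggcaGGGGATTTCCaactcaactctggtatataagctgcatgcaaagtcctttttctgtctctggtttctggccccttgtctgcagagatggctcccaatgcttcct
CRYAA: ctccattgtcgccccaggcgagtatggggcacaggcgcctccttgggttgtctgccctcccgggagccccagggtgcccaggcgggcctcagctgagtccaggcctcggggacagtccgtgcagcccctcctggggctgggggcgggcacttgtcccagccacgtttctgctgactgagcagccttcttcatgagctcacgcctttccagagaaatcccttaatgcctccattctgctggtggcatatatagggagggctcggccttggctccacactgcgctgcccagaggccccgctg
NR1H4: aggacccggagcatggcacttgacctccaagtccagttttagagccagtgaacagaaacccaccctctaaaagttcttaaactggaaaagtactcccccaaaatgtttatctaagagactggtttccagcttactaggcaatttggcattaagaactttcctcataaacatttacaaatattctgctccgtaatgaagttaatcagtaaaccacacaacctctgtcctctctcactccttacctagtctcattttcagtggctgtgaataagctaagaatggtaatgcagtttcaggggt
These windows lie at chr10:13099832-13100131 (plus strand), chr16:3065153-3065452 (plus strand), chr6:29559683-29559982 (minus strand), chr21:43168758-43169057 (plus strand) and chr12:100503110-100503409 (plus strand), in the printed order. The NR1H4 window lies inside the gene, at the start its RefSeq entry takes. In OPTN a pair of overlapping matches begins 12 and 11 bases before the start, in IL32 a pair 99 and 98 bases before it, and in UBD 1 match 53 bases before it. A match was found in 5.72% of all 27305 promoters, in 6.48% of 11035 promoters of genes tested, in 14.6% of 611 raised genes and in 3.88% of 258 lowered genes. BIRC3, whose interaction interval included 0, holds 2 matches. A match is a description of the letters and not a binding site.

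In the NF-kB and chemokine lists more members had a negative than a positive interaction, and no member passed the edgeR test. Of 36 genes of NF-kB signalling and feedback, 17 were called raised on average, against 5.02% of all genes, and none lowered. The median response was 0.49 in DKD and 0.52 in CTL cells and the median interaction -0.14, 26 negative and 10 positive. In edgeR 1 member had an unadjusted p under 0.05 with the block, against 3.45% of all genes. Without replicate 1 the signs were 20 negative and 16 positive, with a median of -0.030. RELB, the NF-kB subunit of the alternative pathway, was at 24.9, 30.1 and 40.4 CPM in DKD cells with TNFα and 4.40, 4.49 and 4.84 CPM in untreated DKD cells, against 26.9, 31.8 and 38.1 CPM in CTL cells with TNFα and 2.70, 4.10 and 3.02 CPM in untreated CTL cells. The lines overlapped with TNFα, while untreated DKD libraries were all above untreated CTL libraries, and the interaction was -0.51 (SE 0.29, interval -1.15 to 0.14). BIRC3, an inhibitor of apoptosis and a standard NF-kB target, had responses of 2.93, 3.63 and 3.88 in DKD and 3.66, 4.11 and 3.78 in CTL cells, which overlapped, and an interaction of -0.38 (interval -1.002 to 0.23). TRAF1, an adaptor of TNF receptors, had an interaction of -0.53 (-1.25 to 0.20).

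Of 14 chemokine and cytokine genes tested, 11 had a negative interaction and 3 a positive one, with a median of -0.34. The median response was 1.16 in DKD and 1.36 in CTL cells. 3 members had an unadjusted p under 0.05 with the block in edgeR, all negative, against 1.47% of all genes that were negative at that p. Without replicate 1 the list stood at 11 of 15 negative with a median of -0.26. IL32, a proinflammatory cytokine, was at 235, 423 and 482 CPM in DKD cells with TNFα and 77.9, 138 and 147 CPM in untreated DKD cells, against 302, 437 and 464 CPM in CTL cells with TNFα and 62.9, 103 and 104 CPM in untreated CTL cells. Replicate 1 was the lowest library in each of the 4 groups, and the responses of 1.59, 1.61 and 1.71 in DKD and 2.26, 2.08 and 2.15 in CTL cells did not overlap. Its interaction was -0.50 (SE 0.45) without the block and -0.53 (SE 0.11, edgeR adjusted p = 0.610) with it, and DESeq2 with the block gave adjusted p = 0.0197. IL32 was named after its value was seen, as were TRPV2, RGS2, HPR, ACSM2A, DGAT1, TAGLN, DPEP1, NAIPP4, CRYAA2, ACSM2B and the TBC1D3 genes. CXCL8, the neutrophil chemokine IL-8, had a wide error. It was at 0.624, 31.1 and 28.6 CPM in DKD cells with TNFα and 0.0820, 0.713 and 0.620 CPM in untreated DKD cells, against 4.02, 42.6 and 20.4 CPM in CTL cells with TNFα and 0.0243, 0.737 and 0.504 CPM in untreated CTL cells. Untreated, replicate 1 had 3 counts in DKD and 1 count in CTL cells. Replicate 1 was at most 4.02 CPM with TNFα in either line, far below the other replicates, and the interval of the interaction ran from -4.52 to 3.75. IL11, a cytokine of the IL-6 family, had responses of -0.42, -0.10 and 0.023 in DKD and 0.55, 0.92 and 0.73 in CTL cells, which did not overlap (interaction -1.06, SE 0.81). For TNFSF10, the death ligand TRAIL, responses were 0.20, 0.11 and 0.052 in DKD and -0.24, -0.54 and -0.57 in CTL cells (interaction 0.68).

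The antigen-presentation and interferon lists gave no common direction. Of 20 genes of MHC class I and the immunoproteasome 14 were called raised on average, against 5.02% of all genes. Median responses were 0.65 in DKD and 0.53 in CTL cells, and the median interaction was 0.076, 8 negative and 12 positive. UBD (FAT10, a ubiquitin-like protein that marks proteins for the proteasome, chromosome 6, 29555515 to 29559732) was at 239, 318 and 348 CPM in DKD cells with TNFα and 4.95, 14.6 and 11.4 CPM in untreated DKD cells, against 183, 243 and 250.3 CPM in CTL cells with TNFα and 1.65, 4.52 and 4.10 CPM in untreated CTL cells. The rise was steep in both lines, with untreated levels higher in DKD cells in every library. Responses of 5.52, 4.42 and 4.90 in DKD and 6.59, 5.67 and 5.85 in CTL cells did not overlap, and the interaction was -1.18 (SE 0.54). With the block edgeR gave adjusted p = 0.982 and DESeq2 0.0448. ERAP2, a peptidase that trims antigens, had a positive value of 0.26 (interval -0.082 to 0.60). Of 36 interferon-stimulated genes 14 were called raised, against 5.02% of all genes. Median responses were 0.59 in DKD and 0.44 in CTL cells, and the median interaction was -0.0073, 19 negative and 17 positive. Without replicate 1 that median was -0.0043. Its members with the smallest p were PARP9, an ADP-ribosyltransferase, at -0.31 (SE 0.14), and TRIM25, a ubiquitin ligase of RNA sensing, at 0.19 (SE 0.099).

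Of 19 selective autophagy genes, OPTN included, 13 had a negative interaction (median -0.092). Without replicate 1 it was 11 of 19, with a median of -0.043. With the block 2 had an unadjusted p under 0.05, against 3.45% of all genes, OPTN and SQSTM1. SQSTM1 (p62, the best known of these receptors) was at 222, 310.5 and 356 CPM in DKD cells with TNFα and 149.7, 111 and 124 CPM in untreated DKD cells, against 376, 403 and 428 CPM in CTL cells with TNFα and 120.0, 101 and 111 CPM in untreated CTL cells. Every library with TNFα was above every untreated one, and among TNFα-treated cells all DKD libraries were below all CTL libraries. Responses were 0.57, 1.49 and 1.51 in DKD and 1.64, 1.99 and 1.94 in CTL cells, with DKD replicate 1 lowest, and the interaction was -0.65 (SE 0.23). In the list of crystallins, small heat shock proteins and chaperones, 18 members were tested. Beside CRYAA only HSPB6 had an unadjusted p under 0.05 with the block (3.45% of all genes), at levels of at most 0.438 CPM.

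TRPV2, a calcium-permeable ion channel (chromosome 17, 16415571 to 16437003), had the smallest edgeR p with the block after DKK4 among annotated genes named here. It was at 21.4, 36.0 and 39.7 CPM in DKD cells with TNFα and 18.9, 24.0 and 25.5 CPM in untreated DKD cells, against 38.9, 60.9 and 57.9 CPM in CTL cells with TNFα and 16.5, 22.1 and 21.6 CPM in untreated CTL cells. The lines overlapped in both states, with TNFα only in that DKD replicate 3 was just above CTL replicate 1. Responses were 0.17, 0.58 and 0.64 in DKD and 1.23, 1.45 and 1.41 in CTL cells, without overlap. The interaction was -0.88 (SE 0.34), and -0.90 (SE 0.14, edgeR adjusted p = 0.394) with the block, with DESeq2 adjusted p = 1.13e-04. RGS2, a regulator of G-protein signalling, had responses of -0.23, 0.45 and 0.36 in DKD and 1.25, 1.87 and 1.41 in CTL cells, and an interaction of -1.29 (SE 0.78), or -1.29 (SE 0.30, DESeq2 adjusted p = 0.0336) with the block. ITGA2, an integrin subunit that binds collagen, rose to 93.7, 147 and 131 CPM with TNFα in DKD cells, against 71.2, 67.8 and 60.9 CPM untreated, and to 221, 286 and 239 CPM in CTL cells, against 80.9, 108 and 81.8 CPM. DKD libraries with TNFα were below all CTL libraries with TNFα, and the interaction was -0.57 (SE 0.24). The list of matrix, adhesion and proteolysis genes had 20 negative and 13 positive members and a median of -0.043. There PLAU, the urokinase protease, had responses of 3.15, 3.46 and 3.26 in DKD and 2.55, 3.08 and 3.08 in CTL cells (interaction 0.45, interval -0.73 to 1.63), although its levels with TNFα were 19.7, 49.6 and 53.4 CPM in DKD and 117, 185 and 172 CPM in CTL cells.

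Among hepatocyte genes, positive interactions with an unadjusted p under 0.05 were most numerous for bile acid, drug and transport genes. Of 31 genes tested in this list 9 had an unadjusted p under 0.05 in edgeR with the block, 7 positive and 2 negative, against 1.98% and 1.47% of all genes. The list median was 0.13, 14 negative and 17 positive, and without replicate 1 it was 0.043 with 15 of each sign. NR1H4, the bile acid receptor FXR (chromosome 12, 100473866 to 100564414), was at 47.4, 35.3 and 26.2 CPM in DKD cells with TNFα and 73.8, 66.0 and 58.4 CPM in untreated DKD cells, against 6.93, 6.16 and 4.58 CPM in CTL cells with TNFα and 25.4, 19.0 and 20.1 CPM in untreated CTL cells. DKD cells were above CTL cells in every library of each state, and untreated libraries were above treated ones in each line. Responses of -0.64, -0.90 and -1.15 in DKD and -1.84, -1.59 and -2.08 in CTL cells did not overlap. The interaction was 1.004 (SE 0.31), and 0.99 (SE 0.16, edgeR adjusted p = 0.394) with the block, where DESeq2 gave 2.91e-04. CYP4F12, a cytochrome P450 that hydroxylates fatty acids (chromosome 19, 15673087 to 15697174), was at 38.2, 28.6 and 24.6 CPM in DKD cells with TNFα and 34.6, 39.1 and 38.2 CPM in untreated DKD cells, against 9.15, 8.14 and 9.60 CPM in CTL cells with TNFα and 18.6, 19.9 and 23.0 CPM in untreated CTL cells. In DKD cells the states overlapped, and in CTL cells every treated library was below every untreated one. Its interaction was 0.90 (SE 0.22). With the block edgeR gave adjusted p = 0.873 and DESeq2 0.0696. The neighbouring CYP4F3, which inactivates leukotriene B4, had an interaction of 0.91 (interval -0.14 to 1.97).

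The 3 fibrinogen chain genes were called lowered on average of the lines, and their interactions ranged widely. FGB, the beta chain (chromosome 4, 154562980 to 154572807), was at 109.7, 93.0 and 78.3 CPM in DKD cells with TNFα and 588, 401 and 383 CPM in untreated DKD cells, against 21.6, 28.4 and 21.8 CPM in CTL cells with TNFα and 39.8, 64.5 and 55.6 CPM in untreated CTL cells. Every DKD library exceeded every CTL library in the same state, and the responses of -2.42, -2.11 and -2.29 in DKD and -0.88, -1.18 and -1.34 in CTL cells did not overlap. The interaction was -1.13 (SE 0.30), and DESeq2 with the block gave adjusted p = 0.0428. For FGA it was -0.59 (interval -1.86 to 0.69), and for FGG -0.013 (-0.72 to 0.69). The FGA responses of -2.22, -2.36 and -2.62 in DKD and -1.55, -1.75 and -1.95 in CTL cells did not overlap, while those of FGG did. HP (haptoglobin, which binds free haemoglobin) was at 7.52, 7.81 and 7.22 CPM in DKD cells with TNFα and 10.6, 11.035 and 13.9 CPM in untreated DKD cells, against 2.10, 2.44 and 2.45 CPM in CTL cells with TNFα and 5.45, 5.90 and 6.69 CPM in untreated CTL cells. DKD cells were above CTL cells in each state, and the responses of -0.48, -0.49 and -0.92 in DKD and -1.28, -1.19 and -1.36 in CTL cells did not overlap. The interaction was 0.71 (SE 0.20), and 0.72 (SE 0.16, edgeR adjusted p = 0.807) with the block. HPR, a paralogue with which HP shares 15.9% of its words, had 0.86 (SE 0.28, DESeq2 adjusted p with the block 0.0325). The pair summed gave 0.78 (SE 0.19), or 0.78 (SE 0.13, edgeR adjusted p = 0.352, DESeq2 0.00136) with the block. The 22 acute-phase and complement genes had 13 negative and 9 positive interactions and a median of -0.035. Without replicate 1 that median was 0.00018 over 21 genes.

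The sign of the interaction is that of a ratio, and the absolute change in CPM can differ. ALB, the serum albumin gene, was at 3042, 2438 and 2163 CPM in DKD cells with TNFα and 8437, 5605 and 4685 CPM in untreated DKD cells, against 309, 229 and 213 CPM in CTL cells with TNFα and 550.0, 477 and 390.5 CPM in untreated CTL cells. It averaged 2548 ± 449.7 CPM in DKD cells with TNFα and 6243 ± 1956 CPM in untreated DKD cells, against 250.2 ± 51.8 CPM in CTL cells with TNFα and 473 ± 79.9 CPM in untreated CTL cells (SD, n = 3 each). Its averaged effect was called lowered. The difference in CPM was thus -3695 in DKD and -222 in CTL cells, while the log2 interaction was -0.38 (interval -1.08 to 0.33). FGG changed by -1256 CPM in DKD and -234 CPM in CTL cells with an interaction of -0.013. Over 32 secreted hepatocyte proteins the interaction was 11 negative and 21 positive with a median of 0.020, or 0.029 without replicate 1. RBP4, the carrier of retinol, had 0.28 (interval -0.064 to 0.62), and APOA1, the main protein of HDL, chosen after its values were seen, 0.13 (-0.13 to 0.39). In bulk RNA, fewer cells expressing a gene and less RNA per cell cannot be told apart.

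The remaining lists are given in less detail. Of 20 liver transcription factors 1 had an unadjusted p under 0.05 with the block, against 3.45% of all genes. This was FOXA1 (a pioneer factor of liver genes), with responses of -0.19, -0.44 and -0.35 in DKD and -0.72, -0.57 and -0.66 in CTL cells and an interaction of 0.33 (SE 0.14). Of 20 Wnt genes 15 were positive, 3 of them at an unadjusted p under 0.05 with the block (1.98% of all genes), including DKK4 and TNFRSF19 (a TNF receptor family member and Wnt target, 0.28, SE 0.091). The stress list of 24 genes had a median interaction of 0.031, with 14 positive. Without replicate 1 its median was -0.032, with 9 of 24 positive. With the block 2 of its genes had an unadjusted p under 0.05 (3.45% of all genes), both of serine synthesis. PHGDH, the first enzyme of that pathway, was at 287, 246 and 239 CPM with TNFα in DKD cells, against 294, 323 and 295 CPM untreated, and at 151, 155 and 174 CPM with TNFα in CTL cells, against 237, 261 and 279.8 CPM. In each line every library with TNFα was below every untreated one, and the interaction was 0.46 (SE 0.13). PSAT1, the next enzyme, had 0.33 (SE 0.14). SLC30A10, a manganese exporter, had responses of 0.11, -0.71 and -0.85 in DKD and -1.09, -1.46 and -1.98 in CTL cells and an interaction of 1.20 (SE 0.43).

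Of 39 cell cycle genes 37 had a positive interaction, against 49.7% of all genes. The list median was 0.17, with median responses of -0.14 in DKD and -0.37 in CTL cells. None had an unadjusted p under 0.05 in either edgeR fit, against 1.14% of all genes without the block and 3.45% with it. The responses of the lines overlapped for all 39. Over all genes they lay without overlap higher in DKD cells in 5.88% and lower in 5.61%. Without replicate 1 the interaction was positive in 35 of 39, with a median of 0.16. TOP2A, the mitotic topoisomerase, had responses of 0.19, -0.20 and -0.34 in DKD and -0.17, -0.56 and -0.51 in CTL cells, with the DKD library of replicate 1 on the other side of 0 from the rest. Replicate 1 of DKD cells stands apart on component 1, and its part in the result was not tested. Of 20 p53 targets 4 were positive with an unadjusted p under 0.05 with the block (1.98% of all genes), among them FDXR at 0.26 and SPATA18 at 0.31. The median over the list was 0.10, and 0.014 without replicate 1. Medians were 0.040 over 24 cholesterol genes, 0.0084 over 25 hypoxia and glycolysis genes, 0.060 over 22 metal-handling genes and 0.041 over 15 H2A variant and macro-domain genes. Without replicate 1 the sign turned in 3 of these lists, to -0.0059 over the cholesterol genes (11 of 24 positive, against 18 with it), -0.013 over the hypoxia genes and -0.0055 over the H2A variant genes, while the metal-handling genes stood at 0.0086.

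**Figure D4:**
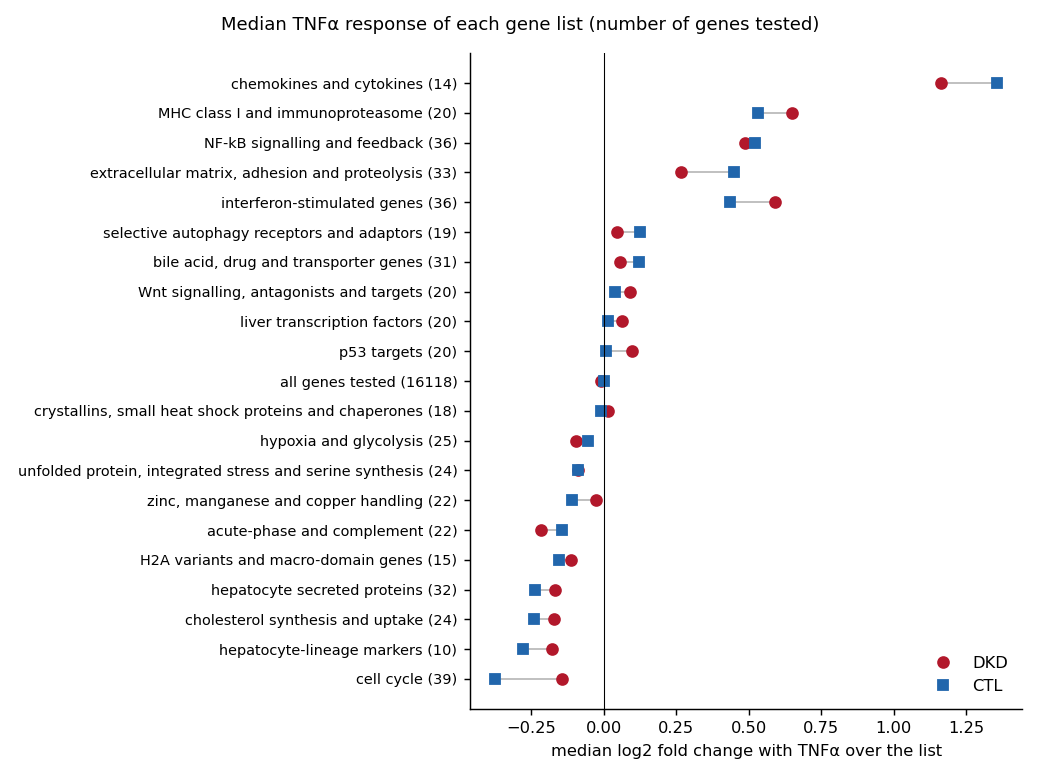
Median log2 fold change with TNFα in DKD cells (circle) and CTL cells (square) for each gene list, with the number of genes tested. Chemokines and cytokines had the highest medians, at 1.16 in DKD and 1.36 in CTL cells, and cell cycle genes stood at -0.14 in DKD and -0.37 in CTL cells.

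Of the 22 genes that DESeq2 called with the block, 5 were in a group with all 3 libraries at 0, where the counts do not fix the size of the fitted value. They include the pseudogene NAIPP4 and TBC1D3D, which shares 98.0% of its words with 11 copies and whose family summed to an interaction of 0.0059 (SE 0.35). Of the 22, 4 have no symbol in the tables used, 3 of them in such groups. The rest include genes whose responses lay on opposite sides of 0 in the lines. ACSM2A, a mitochondrial acyl-CoA synthetase, was at 39.4, 7.93 and 8.19 CPM in DKD cells with TNFα and 24.3, 3.90 and 4.03 CPM in untreated DKD cells, against 4.54, 1.002 and 1.32 CPM in CTL cells with TNFα and 5.86, 1.54 and 1.94 CPM in untreated CTL cells. Replicate 1 was several times the other replicates in each group, and responses were 0.69, 0.98 and 0.98 in DKD and -0.35, -0.51 and -0.48 in CTL cells. Its interaction was 1.24 (SE 1.32) without the block and 1.39 (SE 0.25, edgeR adjusted p = 0.394, DESeq2 0.00285) with it. Summed with ACSM2B, which shares 54.8% of its words, it was 1.21 (SE 1.29), or 1.24 (SE 0.22, edgeR adjusted p = 0.432, DESeq2 0.00105) with the block. DGAT1, which makes triglycerides, had responses of 0.51, 0.071 and 0.12 in DKD and -0.62, -0.50 and -0.33 in CTL cells (interaction 0.66, SE 0.37). TAGLN, an actin-binding protein, had -0.37, -0.43 and -0.34 in DKD and 0.57, 0.25 and 0.42 in CTL cells (interaction -0.78, SE 0.56). DPEP1, a membrane dipeptidase, was higher with TNFα in both lines, with 1.59, 0.92 and 1.20 in DKD and 0.50, 0.29 and 0.42 in CTL cells (0.88, SE 0.44). A difference of the same sign in all 3 numbers, which all of these last genes had, was seen in 5911 of the 16118 genes (36.7%).

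**Figure D5:**
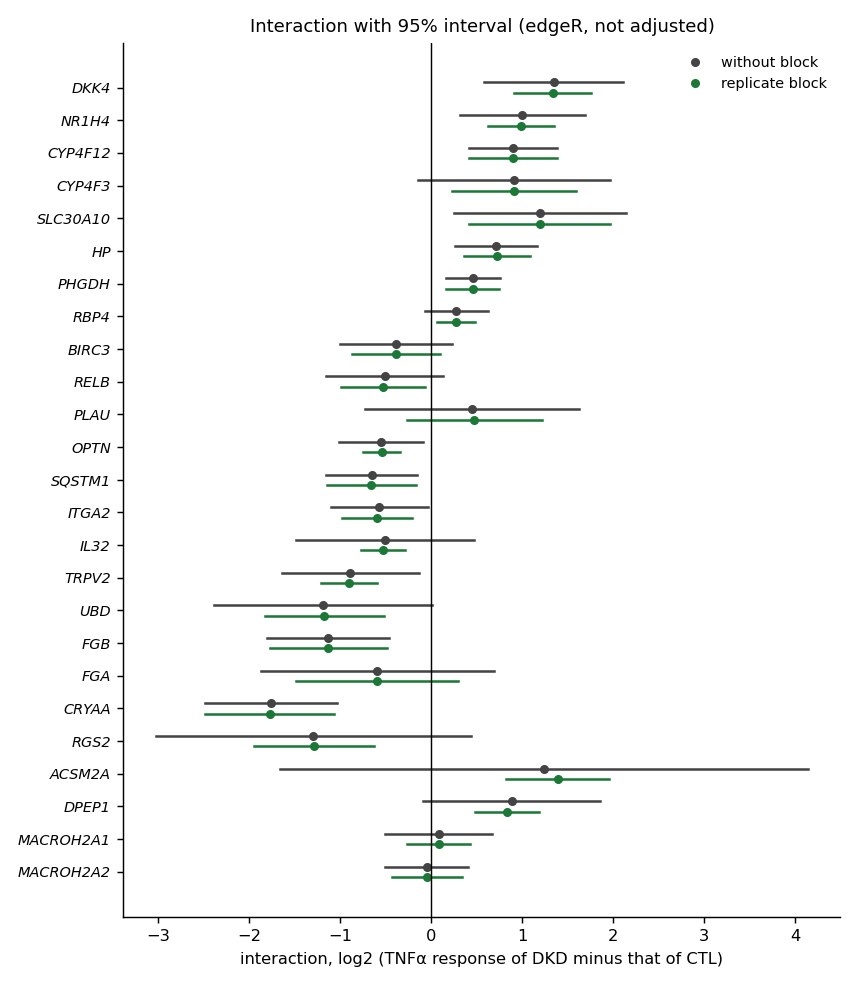
Interaction (points) with 95% interval (lines, edgeR, not adjusted for the number of genes) for 25 genes, without the block (grey) and with the replicate block (green). DKK4 and NR1H4 lie right of 0 and OPTN, TRPV2, FGB and CRYAA left of it in both fits, while the interval of ACSM2A reaches -1.66 to 4.14 without the block.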

How the data were processed

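Total RNA of HepG2 cells was sequenced as 12 bulk libraries. The authors' file gives, for each gene and library, an estimated count, and all of these are whole numbers. Software named in the submitters' processing notes is CASAVA 1.7, Salmon 0.14.0 and DESeq2, with genome GRCh38/hg38; annotation, strand setting and the step from transcripts to genes were not stated there. A second, scaled table was not used.

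Genes were filtered with filterByExpr (minimum count 10, minimum total 15), scaled by TMM and tested with edgeR 4.0.16 (quasi-likelihood, R 4.3.3) over all 12 libraries as 4 group means, with 8 residual degrees of freedom (6 with the replicate block) and Benjamini-Hochberg adjustment over 16118 genes at 0.05. DESeq2 1.42.0 and limma-voom (limma 3.58.1) with quality weights were alternatives, as were other scalings, other filters and leaving libraries out. Responses per library are differences of log2(CPM + 0.25) between same-numbered libraries. The numbers come from the sample titles. All 18 pairs of same-numbered libraries deviated from their group means together (correlation across genes 0.283 to 0.779), so the number was taken to pair them. A single count was worth 0.0238 to 0.0320 CPM. The edgeR test of the interaction, with and without the replicate block, was tested on simulated counts. DESeq2 and limma-voom were not.

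The genes and lists were chosen with earlier results of these data known. The rule named CRYAA, DKK4, OPTN and both macroH2A genes; genes edgeR called for the interaction, of which there were 0 with or without the block; of genes called for the averaged TNFα effect with an average log2 CPM of at least 2, the 8 with the largest rise and the 5 with the largest fall; and up to 2 members per list with the smallest p for the interaction. Other genes are marked as named after their values were seen. Sequences and positions are from RefSeq (GRCh38.p14). Near-identical copies were compared by shared 31-base words of GENCODE transcripts.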

Additional observations from a re-analysis of the deposited data

Results flagged for a closer look

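In 9 of the 72 genes looked at singly, all 3 same-numbered responses lay on 1 side of 0 in DKD cells and on the other side in CTL cells. Over all genes this held for 230 of 16118 (1.43%). Many of the 72 were picked by a small p or a DESeq2 call for the interaction. A higher share among them is therefore built in and is no result. The edgeR test of the difference was the interaction itself, which none of the 9 passed after adjustment over all 12 libraries, with or without the block. RPL37P6 was chosen after its values were seen. The interaction was 0.68 for TNFSF10, -0.31 for PARP9, 0.19 for TRIM25, -1.05 for CA9, 1.24 for ACSM2A, 0.66 for DGAT1, -2.18 for the ribosomal pseudogene RPL37P6, and -0.78 for TAGLN. For TBC1D3D the fitted value was 10.8, which depends on the prior count since all 3 CTL libraries with TNFα were at 0; summed with its copies, the family stood at 0.0059. CA9 was at 1.81 CPM or less in every library and RPL37P6 at 1.93 CPM or less.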

How the results depend on the processing

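For the interaction, edgeR called 0 or 1 genes under all 39 alternative edgeR settings, with the replicate block, other scalings or filters, copies summed, or libraries left out; the 3 settings with 1 gene left out untreated CTL replicate 2 (with or without the block) or untreated DKD replicate 2 (with the block). DESeq2 called 5, 22 with the replicate block, 45 with a block within each line and 21 with the block and copies summed; limma-voom called 1. For the averaged TNFα effect, edgeR called 1163 genes, against 3414 with the replicate block, 4499 with it within each line and 3413 with it and copies summed; DESeq2 called 1986, 3907 with the block, 4012 within each line and 3904 with copies summed; limma-voom called 3916, 3982 and 3639 in the same order of the first 3 designs; leaving libraries out gave 92 to 5877. The blocks within lines and the summed copies were chosen after seeing the data. Of 72 genes, 63 kept the sign of the interaction throughout. With limma-voom MACROH2A2 turned to 0.031 (0.015 with the block), NAIPP4 to 1.63 (0.62) and SERPINA1 to -0.0033. With libraries left out the range was -0.39 to 2.15 for ACSM2B, -1.35 to 0.49 for CXCL8, -0.35 to 0.20 for FGG, -0.028 to 0.32 for H2AZ1, -0.12 to 0.24 for MACROH2A1, -0.17 to 0.10 for MACROH2A2, -17.0 to 0.90 for NAIPP4, -0.16 to 0.18 for SERPINA1 and -0.12 to 0.88 for SLC6A19. The cause was not tested. For CXCL8 the SE of the interaction was 1.88, and 0.83 with the block.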
